A study of Mus musculus with 6 samples.

Results

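The AP-1 transcription factor genes were examined in CD11b+ cells of subcutaneous TC1 tumors. The set was chosen by gene symbol and held 10 genes of the 25701 in the count table: *Fos*, *Fosb*, *Fosl1*, *Fosl2*, *Jun*, *Junb*, *Jund*, *Atf3*, *Batf* and *Jdp2*. All 10 passed the filter on low counts, which kept 13485 genes. The cells came from C57BL/6 mice that were 8 weeks old when dosing began. Both of their alleles of MCT2 (*Slc16a7*, a monocarboxylate transporter) were floxed, and they carried a tamoxifen-inducible Cre. MCT2 KO mice received tamoxifen (n = 3 samples), and MCT2 CO mice had the same alleles and received vehicle (n = 3 samples). The deletion and the exposure to tamoxifen therefore cannot be told apart. The deletion was in the whole host and the injected TC1 lung epithelial tumor cells were not floxed. TC1 cells were injected 2 days after the last dose, and tumors were taken 24 days after the injection. Tumors were digested with collagenase at 37 °C and cells were taken by magnetic CD11b selection, which also retains neutrophils and monocytes. The sample records name the lung, but by the study's methods the cells came from tumors in the flank.

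AP-1 is a family of dimers of basic leucine zipper proteins. Proteins of the Fos class pair only with others, mostly those of the Jun class, which can also pair among themselves, and ATF3, BATF and JDP2 join Jun proteins in place of Fos. The dimers bind the sequence TGACTCA and related sites, and in macrophages they act with lineage factors at enhancers of inflammatory and matrix-remodelling genes. Several of the genes, *Fos*, *Fosb*, *Jun*, *Junb* and *Atf3* among them, are transcribed within minutes of a stimulus, which includes enzymatic dissociation of tissue.

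The 6 libraries held between 24863611 and 31713704 counts. AP-1 genes took 0.462% to 0.783% of the library sizes scaled by TMM factors. *Slc16a7*, the targeted gene, was at 16.0, 11.04 and 11.2 CPM (counts scaled to library size, with TMM factors) in the CO libraries and at 8.22, 4.97 and 5.34 in the KO libraries, a log2 fold change of -1.05 (SE 0.24) with an edgeR adjusted p of 0.370 and a DESeq2 adjusted p of 0.00908, which passed the thresholds. Of 13 macrophage markers, 12 passed the filter and all 12 had higher means in KO, none of them called, and the 13 summed to 8347 to 12451 CPM in CO and 9114 to 17148 CPM in KO. *Itgam*, which encodes CD11b itself, had 1 count in all, and 99.1% of its exon bases lie in the span of another gene. Of 5 epithelial tumor markers, *Krt8*, *Krt18* and *Krt19* did not pass the filter, *Epcam* was at no more than 1.13 CPM in any library and *Cdh1* had means of 15.9 CPM in CO and 23.2 CPM in KO (log2 fold change 0.54, SE 0.25). The fibroblast markers *Col1a2* (means of 459 CPM in CO and 390 CPM in KO) and *Pdgfra* (403 and 388 CPM) were higher, so RNA of cells other than myeloid ones may be included. The study states that firmly separating TC1 cells from host mesenchymal cells would need further analyses. The epithelial markers therefore do not measure what TC1 cells contribute. In such bulk samples, fewer cells of a type and less RNA per cell cannot be told apart.

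The AP-1 genes spanned a wide range of levels. Per kilobase of exon, the CO mean was highest for *Fos* (588 CPM per kb), followed by *Junb* (555), *Atf3* (401), *Jun* (360.0) and *Fosb* (313). *Jund* (132), *Fosl1* (53.4), *Fosl2* (47.3), *Jdp2* (15.1) and *Batf* (5.27) followed. The CO libraries of *Fos* and *Junb* overlapped, as did those of *Atf3* and *Jun* and of *Jun* and *Fosb*, so these neighbours did not differ beyond their spread. In KO, the order was the same except that *Fosl2* (41.4) came before *Fosl1* (39.9). The place of *Fosl1* depends on the length used, since 57.2% of its exon bases lie in the span of another gene. Over the bases outside other spans, *Fosl1* was at 125 CPM per kb in CO and 93.2 in KO, above *Fosl2* in both groups and above *Jund* (71.6) in KO, and *Junb* was at 600.0 in CO, ahead of *Fos*. The deposited length of each gene is its whole span for 100% of genes, so reads of introns may be counted too. *Atf3* has 2154 exon bases in a span of 47744, while *Jun* and *Jund* have a single exon. How far intron reads change the levels per kilobase of exon and their order was not tested. Without length correction, *Fosb* had the 28th and *Fos* the 39th highest mean CPM of all genes tested.

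**Figure D1:**
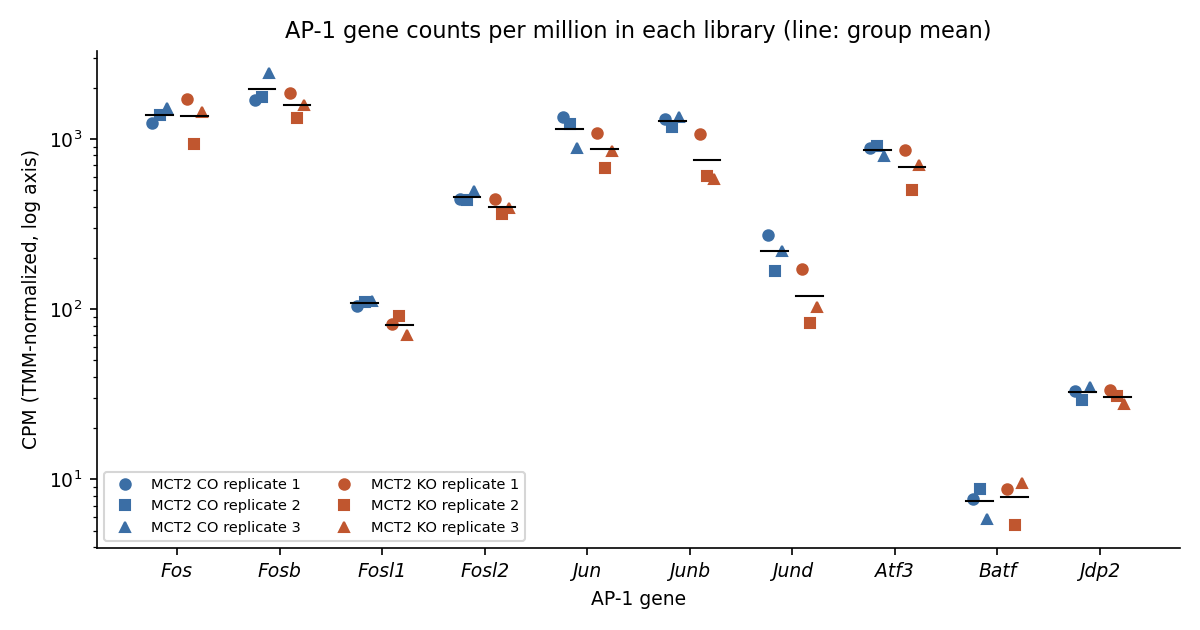
Level of each AP-1 gene in the 6 libraries, in CPM on a logarithmic axis, with 1 point per library and a line at each group mean. The 3 KO points lie below the 3 CO points for *Fosl1* and *Junb*, and KO replicate 2 is the lowest point for 7 of the 10 genes.

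Stretches just before the start of the 2 genes of highest mean CPM in each of the Fos and Jun classes are shown, because they hold motifs through which these early genes are known to be induced. They were taken from RefSeq on GRCm38.p6, lie upstream of the transcript and outside its exons, and are written 5′ to 3′ on the gene's strand. *Fos* is on the plus strand (chr12:85473750-85473869), and *Fosb* (chr7:19310066-19310125), *Jun* (chr4:95052243-95052332) and *Junb* (chr8:84978769-84978868) are on the minus strand. Capitals mark the CRE half-site TGACG, the AP-1-like octamer TGACATCA, the TATA box TATAAA, the GC box GGGCGG and the CCAAT box, on either strand, so that CCGCCC is a GC box of the other strand.
Fos: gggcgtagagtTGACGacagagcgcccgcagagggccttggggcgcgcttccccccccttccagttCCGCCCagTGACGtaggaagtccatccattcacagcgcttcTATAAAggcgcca
Fosb: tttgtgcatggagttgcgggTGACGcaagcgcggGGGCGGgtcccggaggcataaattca
Jun: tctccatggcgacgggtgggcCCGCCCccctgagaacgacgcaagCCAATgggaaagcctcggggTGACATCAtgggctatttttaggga
Junb: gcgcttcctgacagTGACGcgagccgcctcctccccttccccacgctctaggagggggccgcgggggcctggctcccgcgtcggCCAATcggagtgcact

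Both strands were searched from 250 bases before to 50 bases after each start, in 11 windows of 9 AP-1 genes and in 32851 windows of all genes. RefSeq windows were matched for all but *Fosl1*. The half-site TGACG, which is also part of the full CRE TGACGTCA, was in 6 of the 11 windows (*Fos*, *Fosb*, *Junb*, *Atf3*, *Batf*, *Jdp2*) and in 20.8% of all windows. TGACATCA was in the *Jun* window and in 3.62% of all windows. The GC box was in 9 of the 11 windows (35.7% of all), the CCAAT box in 3 (37.4%) and TATAAA in 2 (8.32%). The AP-1 site TGACTCA (5.20% of all windows), the full CRE (1.79%) and the SRF CArG box (1.63%) were in none of the 11, which says only that these letters are not in these windows.

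Comparing KO with CO asks whether the AP-1 genes differed in CD11b-selected tumor preparations of hosts with reduced MCT2. Of the 10 AP-1 genes, 9 had a lower mean in KO, and the largest differences were in the Jun class: *Jund* was lower by 45.7% and *Junb* by 41.0%. No AP-1 gene passed the thresholds in edgeR's quasi-likelihood test (adjusted p of at most 0.05 and absolute log2 fold change of at least 0.58). The test called 0 of all 13485 genes (0%), and 1264 (9.37%) had an unadjusted p under 0.05. limma-voom also called 0 genes, and DESeq2 called 83 (0.584%) with every gene that had a count and 79 (0.586%) with the filtered genes, none of them an AP-1 gene.

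*Fosl1*, *Junb* and *Jund* had an unadjusted edgeR p under 0.05, all lower in KO. These were 3 of the 10 AP-1 genes, against 5.6% of all genes for lower and 3.77% for higher values in KO. The groups did not overlap for 2 of the 10 genes, *Fosl1* and *Junb*, both with KO below CO, where 8.77% of all genes had that order and 6.91% of the 2661 genes with a mean of at least 100 CPM. No AP-1 gene had all KO above all CO libraries, an order found for 7.07% of all genes. *Junb* and *Jund* were at or below a log2 fold change of -0.58, as were 3.88% of all genes. A log2 fold change below 0 was found for 49.9% of all genes and 45% of the more abundant ones, against 9 of the 10. The median log2 fold change was -0.32 over the AP-1 genes and 0.00 over all genes. It was -0.17 without KO replicate 2 and -0.41 without KO replicate 1.

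**Figure D2:**
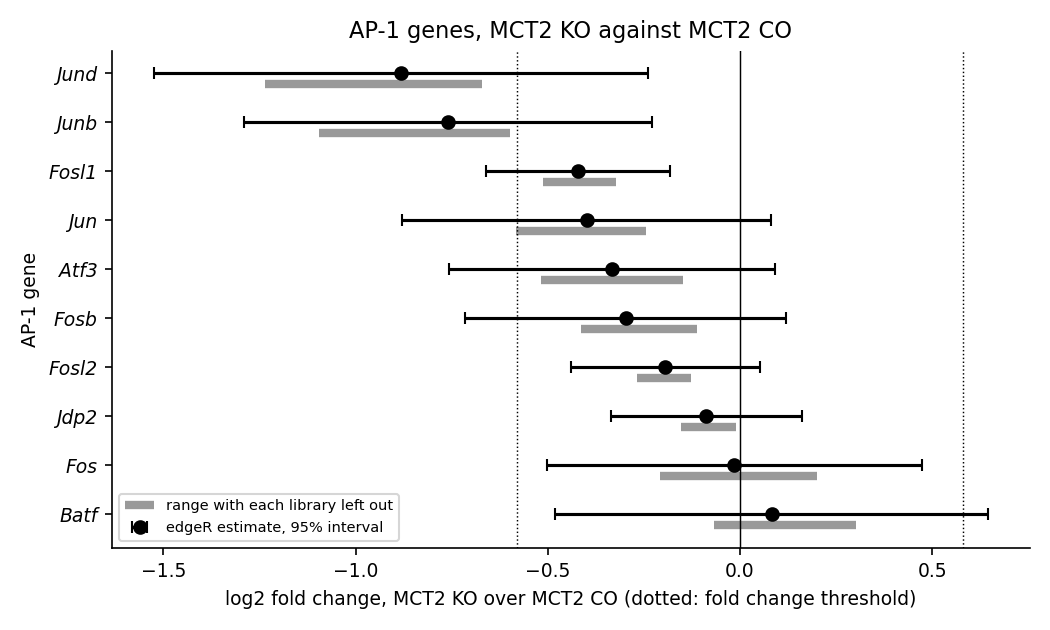
Log2 fold change of each AP-1 gene, KO over CO, with the edgeR estimate and its 95% interval in black and the range of estimates with each library left out in grey. The intervals of *Jund*, *Junb* and *Fosl1* lie below 0, and those of the other 7 genes include 0.

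**Figure D3:**
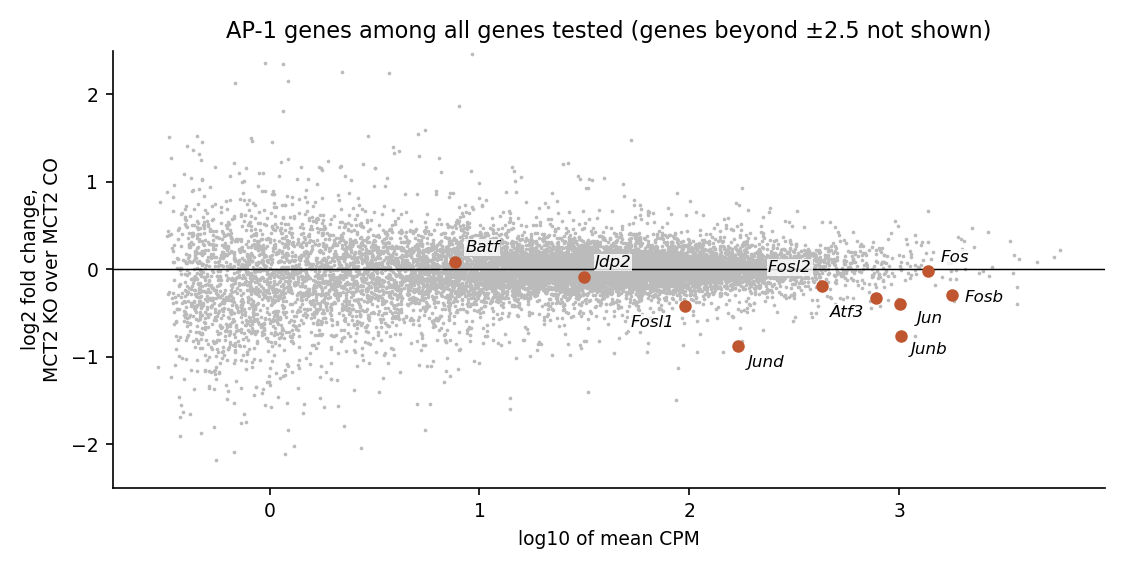
Log2 fold change against the log10 of mean CPM for all genes tested (grey, n = 13485, those beyond the axis not drawn) and the AP-1 genes (red). *Jund* and *Junb* lie below most genes of like abundance, and *Fos* lies on the line at 0.

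In the Jun class, *Junb* (ENSMUSG00000052837, chromosome 8, 84974484 to 84978718, minus strand), a Jun protein that can restrain *Jun* activity and is induced early, was at 1309, 1182 and 1340 CPM in the CO libraries and at 1075, 605 and 582 CPM in the KO libraries. The 3 KO values lay below the 3 CO values, and KO replicate 1 was nearer to the CO libraries than to the other KO libraries. The log2 fold change was -0.76 (SE 0.23, 95% interval -1.29 to -0.23), with an edgeR adjusted p of 0.430 and a DESeq2 adjusted p of 0.0640. Without KO replicate 1 the log2 fold change was -1.10, with an edgeR adjusted p of 0.0938, and over all alternatives the adjusted p was between 0.0640 and 0.820. Of its exon bases 7.52% lie in the span of *Prdx2* on the other strand.

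*Jund* (ENSMUSG00000071076, chromosome 8, 70698949 to 70700616, plus strand), the Jun gene that is expressed most steadily in resting cells and has a single exon, was at 274, 168 and 218 CPM in CO and at 172, 82.4 and 103 CPM in KO. The groups overlapped by the narrow margin between KO replicate 1 and CO replicate 2, and the other KO libraries lay below all CO libraries. Its log2 fold change was -0.88 (SE 0.28, 95% interval -1.53 to -0.24), with an edgeR adjusted p of 0.433 and a DESeq2 adjusted p of 0.0719. Its unadjusted p of 0.0133 in edgeR became 0.0581 without CO replicate 1, and over all alternatives the adjusted p was between 0.0719 and 0.820.

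*Jun* (ENSMUSG00000052684, chromosome 4, 95049034 to 95052222, minus strand), the founding member of the class and also a gene of a single exon, was at 1345, 1216 and 883 CPM in CO and at 1087, 677 and 848 CPM in KO. The groups overlapped, since KO replicate 1 lay above CO replicate 3. The log2 fold change was -0.40 (SE 0.21, 95% interval -0.88 to 0.08, edgeR adjusted p = 0.588), and it was -0.25 without KO replicate 2. Summed over the 3 Jun genes, the CO libraries held 2927, 2566 and 2441 CPM and the KO libraries 2334, 1364 and 1533 CPM. All KO sums lay below all CO sums, and the means were 2645 ± 253 and 1744 ± 518 CPM (SD, n = 3 each).

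In the Fos class, *Fos* (ENSMUSG00000021250, chromosome 12, 85473890 to 85477273, plus strand), the classic immediate early gene, was at 1239.6, 1388 and 1521 CPM in CO and at 1726, 934 and 1446 CPM in KO. The highest and the lowest of the 6 libraries were both KO libraries. In edgeR the log2 fold change was -0.01 (SE 0.21, 95% interval -0.50 to 0.47, adjusted p = 0.988), and it was 0.20 without KO replicate 2 and 0.06 without CO replicate 3.

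*Fosb* (ENSMUSG00000003545, chromosome 7, 19302696 to 19310051, minus strand), a close relative of *Fos*, was at 1690, 1751 and 2427 CPM in CO and at 1855, 1328 and 1591 CPM in KO. The groups overlapped, and CO replicate 3 stood above the rest. The log2 fold change was -0.30 (SE 0.18, edgeR adjusted p = 0.643), and it was -0.11 without CO replicate 3 and -0.18 without KO replicate 2.

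*Fosl1* (ENSMUSG00000024912, chromosome 19, 5447547 to 5455946, plus strand) encodes FRA1, which lacks the transactivation domain of *Fos*. It was at 105, 110 and 112 CPM in CO and at 81.5, 91.2 and 70.5 CPM in KO. All KO values lay below all CO values, and the CO libraries were within a few CPM of each other. The log2 fold change was -0.42 (SE 0.10, 95% interval -0.66 to -0.18, unadjusted p = 0.00355 and adjusted p = 0.380 in edgeR), short of the fold threshold. Of its exon bases 57.2% lie in the span of *Ccdc85b* on the other strand, and the strand setting of the counting is not given in the sources used here. *Timp1* and *Ccl2*, which lie wholly within spans of genes on the other strand, had no counts. Reads over the shared bases of *Fosl1* may therefore be missing from its count, which was not tested.

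*Fosl2* (ENSMUSG00000029135, chromosome 5, 32135801 to 32157842, plus strand) encodes FRA2, of the same kind. It was at 443, 439 and 493 CPM in CO and at 445, 363 and 393 CPM in KO. The groups overlapped only through KO replicate 1. The log2 fold change was -0.19 (SE 0.11, 95% interval -0.44 to 0.05, edgeR adjusted p = 0.601), and it was -0.13 without KO replicate 2.

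Among the genes of other partners, *Atf3* (ENSMUSG00000026628, chromosome 1, 191170296 to 191218039, minus strand), a stress-induced gene whose protein often represses inflammatory genes, was at 882, 911 and 796 CPM in CO and at 856, 499 and 699.8 CPM in KO. The groups overlapped through KO replicate 1, and the other KO libraries lay below all CO libraries. Its log2 fold change was -0.33 (SE 0.18, edgeR adjusted p = 0.605), and it was -0.15 without KO replicate 2 and -0.52 without KO replicate 1.

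*Batf* (ENSMUSG00000034266, chromosome 12, 85686669 to 85709087, plus strand), best known from lymphocytes and dendritic cells, was at 7.67, 8.73 and 5.83 CPM in CO and at 8.76, 5.37 and 9.48 CPM in KO. It was the one AP-1 gene with a higher mean in KO, but the groups overlapped throughout (log2 fold change 0.08, SE 0.24, edgeR adjusted p = 0.935). *Jdp2* (ENSMUSG00000034271, chromosome 12, 85599027 to 85639878, plus strand), which encodes a repressor that binds Jun proteins, was at 33.2, 29.3 and 34.96 CPM in CO and at 33.3, 30.9 and 27.5 CPM in KO. These values also overlapped (log2 fold change -0.09, SE 0.11, 95% interval -0.34 to 0.16, edgeR adjusted p = 0.823).

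KO replicate 2 was the lowest of the 6 libraries for 7 of the 10 AP-1 genes, as for 22.7% of all genes tested. For *Fosl1*, *Junb* and *Jdp2* the lowest was KO replicate 3, as for 12.8% of all genes. KO replicate 1 was the highest KO library for 8 of the 10, as for 36.3% of all genes, the exceptions being *Fosl1* (KO replicate 2) and *Batf* (KO replicate 3). Among the CO libraries, the lowest was replicate 1, 2 or 3 for 3, 4 and 3 genes. CO replicate 3 was the highest CO library for 6 of the 10, as for 37.7% of all genes. It was the highest of the 6 libraries for 5 of the 10, as for 24.9% of all genes. Over all 10 genes, the summed level was 7327, 7203 and 7830 CPM in CO and 7339, 4616 and 5770 CPM in KO, so KO replicate 1 lay among the CO libraries. For the Fos class alone the sums overlapped, at 3477, 3688 and 4552 CPM in CO and 4107, 2717 and 3500.5 CPM in KO. KO replicate 2 also had the lowest marker sums for T/NK cells (9.85 CPM), B cells (17.5), dendritic cells (24.4), neutrophils (69.6) and endothelial cells (82.5). It was not the lowest for macrophage, fibroblast or epithelial tumor markers. Whether the cell content of this library bears on its AP-1 values was not tested.

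Because libraries differed in their overall AP-1 level, counts were also set against those of *Fos* in the same library, a measure chosen after the values had been seen. For each count of *Fos* there were 1.06, 0.852 and 0.881 counts of *Junb* in the CO libraries and 0.623, 0.647 and 0.403 in the KO libraries. All KO ratios lay below all CO ratios, an order that 2.04% of all genes had in their ratio to *Fos*, with a difference of -0.76 in log2 (exact two-sided permutation p = 0.1, the smallest that 3 against 3 can give, and 0.48 after Benjamini-Hochberg adjustment over 12 ratios).

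The ratio of *Jund* to *Fos* was 0.221, 0.121 and 0.143 in CO and 0.0999, 0.0882 and 0.0714 in KO. Here, too, the groups did not overlap (difference -0.87 in log2, exact permutation p = 0.1, adjusted 0.48). The other 10 ratios overlapped, among them *Jun* to *Fos* (difference -0.35, exact permutation p = 0.4), *Atf3* to *Fos* (-0.31, p = 0.2) and *Fosb* to *Junb* (0.53, p = 0.2). Since the log2 fold change of *Fos* was near 0, the mean differences restate those of *Junb* and *Jund* in CPM. The design cannot reach a p of 0.05 in these tests.

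**Figure D4:**
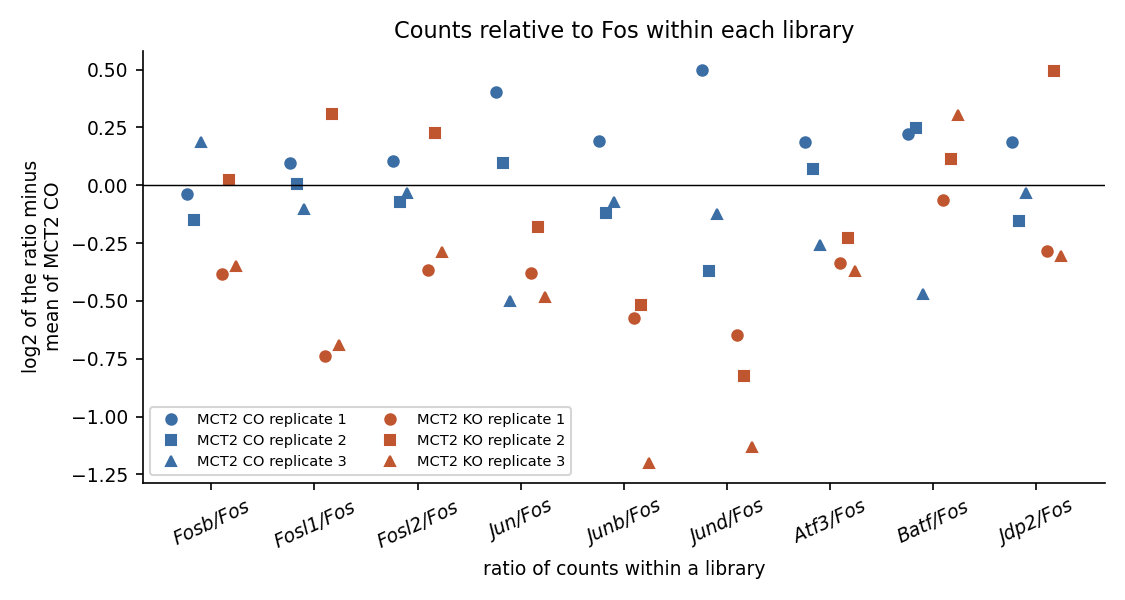
Counts of each AP-1 gene over those of *Fos* in the same library, as log2 relative to the CO mean, with 1 point per library. For *Junb* and *Jund* all 3 KO points lie below all 3 CO points, and the other 7 ratios to *Fos* overlap.

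Of the other basic leucine zipper genes that can pair with AP-1 proteins, 13 of 13 were tested. Lower means in KO were found for 8 and higher ones for 5, none passed the edgeR thresholds, and the median log2 fold change was -0.11. Groups did not overlap, and the unadjusted p was under 0.05, for 3 of them. *Atf4*, which directs the integrated stress response, was at 433, 413 and 523 CPM in CO and 346, 295 and 297 CPM in KO (log2 fold change -0.55, SE 0.12, edgeR adjusted p = 0.370). Its DESeq2 adjusted p was 0.0133, but its log2 fold change was short of the fold threshold. The small Maf genes *Mafk* (-0.55, SE 0.19) and *Maff* (-0.26, SE 0.11) were the other two.

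Upstream of AP-1, the MAP kinase cascade phosphorylates Jun and Fos proteins and the factors at their promoters. Of its 22 genes, 21 were tested, with 12 higher and 9 lower and a median of 0.03, and *Map2k3*, a kinase of the p38 branch, was the one gene with an unadjusted p under 0.05 (log2 fold change -0.26, SE 0.09). The 9 genes of promoter activators (SRF, its partners and MEF2) had a median of -0.03, 4 higher and 5 lower, with *Srf* at -0.15 (SE 0.10) and *Mef2d* at -0.03 (SE 0.11). Of 10 genes that degrade or restrain AP-1 products, 9 were tested, 3 higher and 6 lower, with a median of -0.02. No gene of these lists passed the edgeR thresholds. *Zfp36*, whose protein destabilizes early-response mRNAs, was at 0.12 (SE 0.16) and *Zfp36l1* at -0.17 (SE 0.15).

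Of 15 genes known as AP-1 targets, 13 were tested, 8 lower and 5 higher, with a median log2 fold change of -0.02. *Spp1*, which encodes osteopontin, was at 3911, 4185 and 4305 CPM in CO and at 3235, 3038 and 3140.4 CPM in KO. The groups did not overlap (log2 fold change -0.40, SE 0.11, edgeR adjusted p = 0.416). The DESeq2 adjusted p of *Spp1* was 0.00692, but its log2 fold change was short of the fold threshold. *Mmp13*, a collagenase gene named after its values were seen, was at 170.1, 160.4 and 107 CPM in CO and 272, 287 and 139.6 CPM in KO (log2 fold change 0.68), and its groups overlapped. *Ccl2* and *Timp1* had no counts and lie wholly within spans of other genes.

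Other immediate early genes, which share stimuli with AP-1, were set beside it. All 13 were tested, 12 were lower in KO and 1 higher, and the median log2 fold change was -0.33, close to that of the AP-1 genes. *Egr3* was at 118, 111 and 198 CPM in CO and 78.0, 82.5 and 61.3 CPM in KO (log2 fold change -0.94, SE 0.23, edgeR adjusted p = 0.380). Its DESeq2 adjusted p was 0.00908, which passed the thresholds. The groups of *Egr2* (-0.52, SE 0.16) and *Ier2* (-0.33, SE 0.10) did not overlap either.

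The 9 heat shock genes, which respond to heat and other stress, were all lower in KO, with a median log2 fold change of -0.53. Their summed level was 3339 to 4225 CPM in CO and 2805 to 3267 CPM in KO, without overlap. *Hspa1b* (-1.60, SE 0.27) and *Hspa1a* (-0.73, SE 0.22) are near-identical copies whose reads may be shared, and *Hsph1* (-0.95, SE 0.21) and *Dnaja1* (-0.53, SE 0.10) were the other chaperone genes named. edgeR called none of the immediate early or heat shock genes, and DESeq2 called 1 and 2 of them. The 8 fibroblast markers were lower in KO as well, with a median of -0.69 and sums of 2070 to 3424 CPM in CO and 1728 to 1842 CPM in KO. DESeq2 called 3 of them, *Col3a1* (-0.76, SE 0.21), *Dcn* (-0.98, SE 0.29) and *Lum* (-1.56, SE 0.37). Of 10 neutrophil markers, 8 passed the filter, with a median log2 fold change of 1.70, and 6 of them had all KO above all CO libraries and an unadjusted p under 0.05. edgeR called none of these and DESeq2 called 5, among them *Ngp* (4.82, SE 1.02), *Retnlg* (2.35, SE 0.43) and *S100a9* (1.87, SE 0.39), at means of 6.68, 1.94 and 12.6 CPM in KO. The sums over all 10 neutrophil markers overlapped, at 83.3 to 103 CPM in CO and 69.6 to 186 CPM in KO, and most of them was *Csf3r*, with means of 86.1 and 92.9 CPM. The part of these genes and cells in the AP-1 values was not tested.

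**Figure D5:**
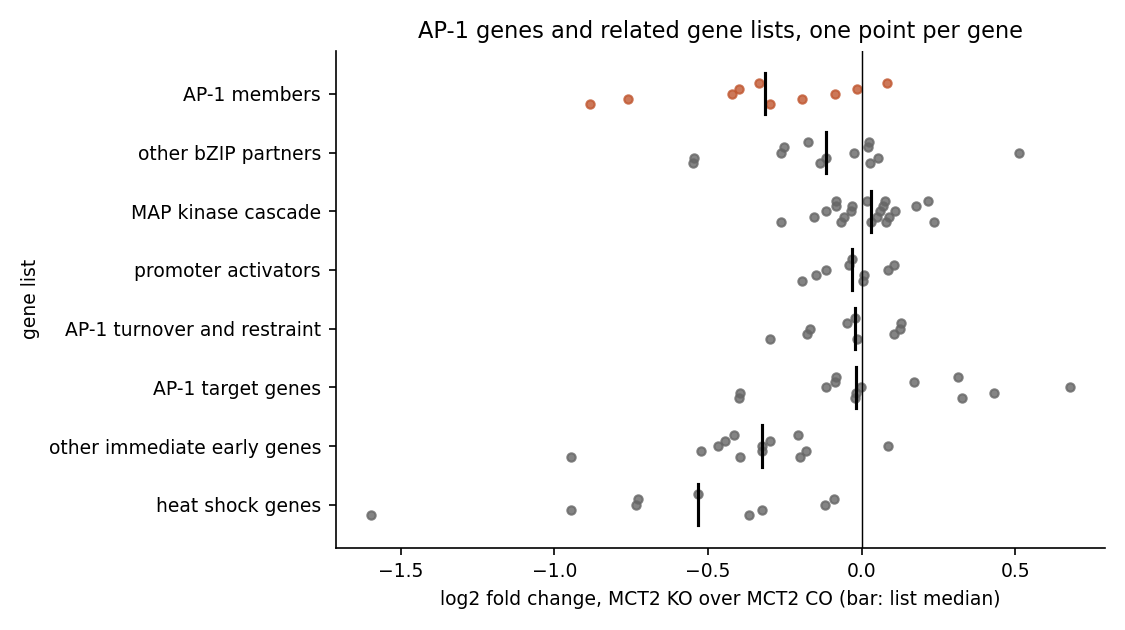
Log2 fold change, KO over CO, of the AP-1 genes (red) and of 7 related gene lists, with 1 point per gene and a bar at each list's median. The medians of the AP-1 genes (-0.32), the other immediate early genes (-0.33) and the heat shock genes (-0.53) are the lowest of the lists drawn.

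The genes whose log2 CPM most resembled that of *Fos* over the 6 libraries, among 9519 genes with a mean of at least 10 CPM, were *Zfand2a* (Pearson r = 0.996), *Aagab* (r = 0.988) and *Dhx34* (r = 0.985). For *Jun* they were *Baz1a* (r = 0.996), *Nfya* (r = 0.995) and *Becn1* (r = 0.991). Picking the highest of 9519 values over 6 libraries can by itself yield such r. These are descriptions over points that share library preparation and depth. Of the pairs within the family, *Fosb* and *Fosl2* (r = 0.948) and *Junb* and *Jund* (r = 0.944) had the highest r, and *Batf* and *Jdp2* (r = -0.50) and *Batf* and *Fosl1* (r = -0.45) the lowest.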

How the data were processed

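Poly-A RNA of CD11b+ cells from tumors was sequenced as 6 samples with a stranded kit. The authors deposited raw read counts per gene, not normalized or pooled. The submitters' processing notes name FastQC 0.12.0, MultiQC 1.28, STAR 2.7.11b, featureCounts 2.1.1 and DESeq2 1.18.1. The annotation, feature type and strand setting are not given in the sources used here. The length deposited with each gene is its whole span for 100% of genes.

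Counts were analysed with edgeR 4.0.16 (R 4.3.3): filterByExpr (minimum count 10, minimum total 15), TMM, the quasi-likelihood test without covariates, and Benjamini-Hochberg adjustment over 13485 genes. CPM values are TMM-scaled. DESeq2 1.42.0 and limma-voom 3.58.1 were alternatives. Ratios were tested by two-sided exact permutation (scipy 1.17.1). On simulated counts with 200 genes changed by 2 log2 units, edgeR recovered 100% with 7.41% false calls, and DESeq2 recovered 100% with 11.5%. No AP-1 gene differed by as much, so recovery at the sizes reported here was not tested. Replicates are separate samples by title, and whether each is 1 mouse is not stated, so p-values measure the spread between these samples.

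Positions are those of GENCODE M21 on GRCm38, since the table's own starts matched it for 2.2% of the shared identifiers. Promoter letters came from RefSeq. The genes and lists were chosen with earlier results of these data known. Named genes were the AP-1 genes, *Slc16a7*, genes of the 7 related lists with an unadjusted p under 0.05 and no overlap (at most 4, otherwise the 2 most abundant), and the 3 genes most like *Fos* and *Jun*. Marker genes are named as examples, chosen after their values were seen. Lists of B-cell, T/NK-cell, dendritic-cell, endothelial and epithelial tumor markers were counted too (summed CPM in CO and KO: 29.7 to 33.0 and 17.5 to 32.4, 31.6 to 57.5 and 9.85 to 90.4, 41.5 to 51.8 and 24.4 to 58.9, 93.0 to 99.3 and 82.5 to 136, 13.9 to 20.9 and 18.5 to 33.5). Sums can hide single genes. Of 7 B-cell markers tested, 6 were lower in KO and 1 higher. For 3 of them, *Cd79a*, *Blk* and *Ms4a1*, all KO lay below all CO libraries, at CO means of 2.10, 0.74 and 1.34 CPM. DESeq2 called 1 of these, *Cd79a* (log2 fold change -2.02, DESeq2 adjusted p = 0.0152), and edgeR none.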

Additional observations from a re-analysis of the deposited data

How the results depend on the processing

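Each AP-1 gene was recomputed under 14 alternatives, and none of the 140 fits gave a call. The direction was kept in 136 of them and in all alternatives for 8 genes. With 1 library left out, *Fos* ranged from -0.21 (without KO replicate 1) to 0.20 (without KO replicate 2) and was 0.059 without CO replicate 3, and *Batf* ranged from -0.067 (without KO replicate 3) to 0.30 (without KO replicate 2) and was -0.064 without CO replicate 3. DESeq2 called 83 genes in all with every gene that had a count and 79 with the filtered genes, and edgeR called 2 with every gene that had a count. Leaving out 1 library gave 0 to 2 calls over all genes, the 2 without KO replicate 2. It gave 2 to 6 AP-1 genes with an unadjusted p under 0.05, the 6 without KO replicate 1 (*Fosl1*, *Fosl2*, *Jun*, *Junb*, *Jund* and *Atf3*) and the 2 without CO replicate 1. The cause of these shifts was not tested. Correlations of same-numbered libraries were 0.22, -0.25 and -0.16, and those of libraries with unlike numbers were between -0.21 and 0.29. With 3 samples a group, these values cannot settle whether shared replicate numbers mark pairs. With the replicate block edgeR called 0 genes, and *Jund* had an unadjusted edgeR p of 0.000155 (adjusted p = 0.330). The median of the AP-1 genes was -0.33 with the block. That median was between -0.41 (without KO replicate 1) and -0.17 (without KO replicate 2) with 1 library left out, against -0.32 with all. Counting error is small at the depth of these libraries except for *Batf*, whose counts were 155 to 236.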
